A study of Mus musculus with 6 samples.

Results

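The 47 genes described here encode parts of the mouse proteasome or proteins that build, open or block it. The 1 exception is Psmc3ip, which matches by its name but is no subunit. They were chosen by name alone, as the rows whose symbol starts with Psma, Psmb, Psmc, Psmd, Psme, Psmf or Psmg followed by a digit, without the immunoproteasome genes Psmb8, Psmb9 and Psmb10, and they are 47 of the 25078 genes in the table. RNA-seq was performed on Hepa1-6 cells, a mouse hepatoma cell line from a C57/L mouse, to ask which RNAs differ when midnolin is suppressed. The 6 libraries comprised 1 of untreated parental cells (wt), 2 of cells carrying a lentiviral scramble vector (scr 25-2 and scr 50-1) and 3 of cells carrying a lentiviral midnolin shRNA vector (knockdown 25-3, 50-2 and 50-5). The scr and knockdown cells had been selected with puromycin and grown from single cells by limiting dilution. The study's RNA-seq is described for 2 knockdown clones and a scr control, so the 3 knockdown libraries may hold 2 from the same clone, and likewise the scr libraries. The wt cells had neither vector nor selection. The labels do not say what the numbers in the library names stand for, or which knockdown library belongs to which clone of the study, so all 3 were used.

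The proteasome is the barrel-shaped protease that degrades most short-lived and misfolded proteins of the cell. Its core particle (20S) is a stack of alpha and beta rings with the active sites inside, and its regulatory particle (19S) binds ubiquitin-tagged proteins, unfolds them with a ring of ATPases and threads them into the core. Midnolin (Midn) is a ubiquitin-like domain protein that brings nuclear proteins to the proteasome without ubiquitin tags, and the transcription factor NRF1 (Nfe2l1) raises the genes of the whole complex when proteasome activity is short.

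The libraries held between 25586301 and 33119710 counted reads, and the proteasome genes took between 0.469% (scr 25-2) and 0.569% (knockdown 50-5) of them. Midn itself had an RPKM, reads scaled to exon length and library size, of 60.5 in wt, 59.6 and 50.8 in scr, and 20.3, 21.8 and 22.1 in knockdown. All knockdown libraries were below both scr libraries, and Midn fell by 1.38 on the log2 scale (Benjamini-Hochberg FDR 0.00777 in edgeR's quasi-likelihood test, the source of all FDR values unless another is named), with an FDR of 0.0525 without knockdown 50-2. The secreted liver proteins Alb, Afp, Ttr and Fgb, markers of hepatocytes, were present in wt and scr cells and lower in all 3 knockdown libraries. Ttr had RPKM values of 2.59, 0.887 and 0.223 in knockdown against 119 and 131 in scr. Of these only Ttr was called (FDR 0.0121), while Alb had an FDR of 0.0712, Afp 0.143 and Fgb 0.0600. Hnf4a, a liver transcription factor on the same list, had 33.9 and 11.0 in scr and 65.5, 65.4 and 29.6 in knockdown (FDR 0.206). Of the 9 hepatocyte markers tested 5 were below 0 and 4 above. Among those above, Apob, of lipoproteins, had 3.00 and 1.07 in scr and 52.2, 37.8 and 4.37 in knockdown (FDR 0.0822), and Serpina1b, a secreted protease inhibitor, had 0 in scr and 2.33, 1.32 and 0.424 in knockdown and was called higher (FDR 0.0384). Of the 4 bile duct markers tested 2 were above 0 and 2 below, and the keratin Krt7 was called lower, at 21.3 and 13.9 in scr and 0.858, 1.89 and 2.15 in knockdown (FDR 0.0133). The part of these markers in the values of the proteasome genes was not tested. Defining markers of leukocytes (Ptprc, Cd3e), endothelium (Cdh5, Lyve1) and fibroblasts (Col1a1, Col1a2) stayed under an RPKM of 1 in every library, while Dcn, a matrix protein of fibroblasts, was at 409 to 1029. Both tested macrophage markers were above 0, Cd68 with 3.02 and 4.53 in scr and 6.22, 6.88 and 9.21 in knockdown (FDR 0.0989, edgeR). The macrophage receptor Csf1r had 1.12 and 0.0725 in scr and 2.26, 2.33 and 4.27 in knockdown (FDR 0.192), and the endothelial Pecam1 (2.85) and the muscle filament Des (1.59) passed 1 in wt alone. In bulk RNA, less of a transcript in every cell and fewer cells with it cannot be told apart.

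Of the 47 genes, 45 had an RPKM above 1 in at least 1 of the 5 scr and knockdown libraries and were tested among 11577 such genes. Psma8, the alpha subunit of testis proteasomes, had 0 reads in all 6 libraries. Psmb11, the beta subunit of thymus epithelium, had 2 reads in wt, 0 in both scr libraries, and 0, 1 and 1 in knockdown. All other subunits of the core and regulatory particle were expressed, from a mean RPKM over all libraries of 7.31 for Psma3 to 216 for Psmb4.

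With midnolin suppressed, 1 of the 45 tested proteasome genes passed the test, Psmg1, an assembly chaperone of the core, which fell by 0.99 on the log2 scale, a call that was lost with the label number 25 or 50 as an added term (FDR 0.0530). A gene was called at an FDR under 0.05 and a change of at least 1.5-fold. By this rule 0 of the 45 genes were higher in knockdown, where 5.4% of all tested genes were, and 1 was lower, where 5.23% of all tested genes were. At any fold the FDR of 0.05 was passed by Psmg1 alone. With DESeq2 in place of edgeR 0 were higher and 2 lower by the same rule, where 20.1% of all tested genes were called. At an unadjusted p under 0.05 there were 5 genes with a higher and 3 with a lower value, 8 of 45, against 31.5% of all tested genes. Psmc3ip is 1 of the 5.

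**Figure D1:**
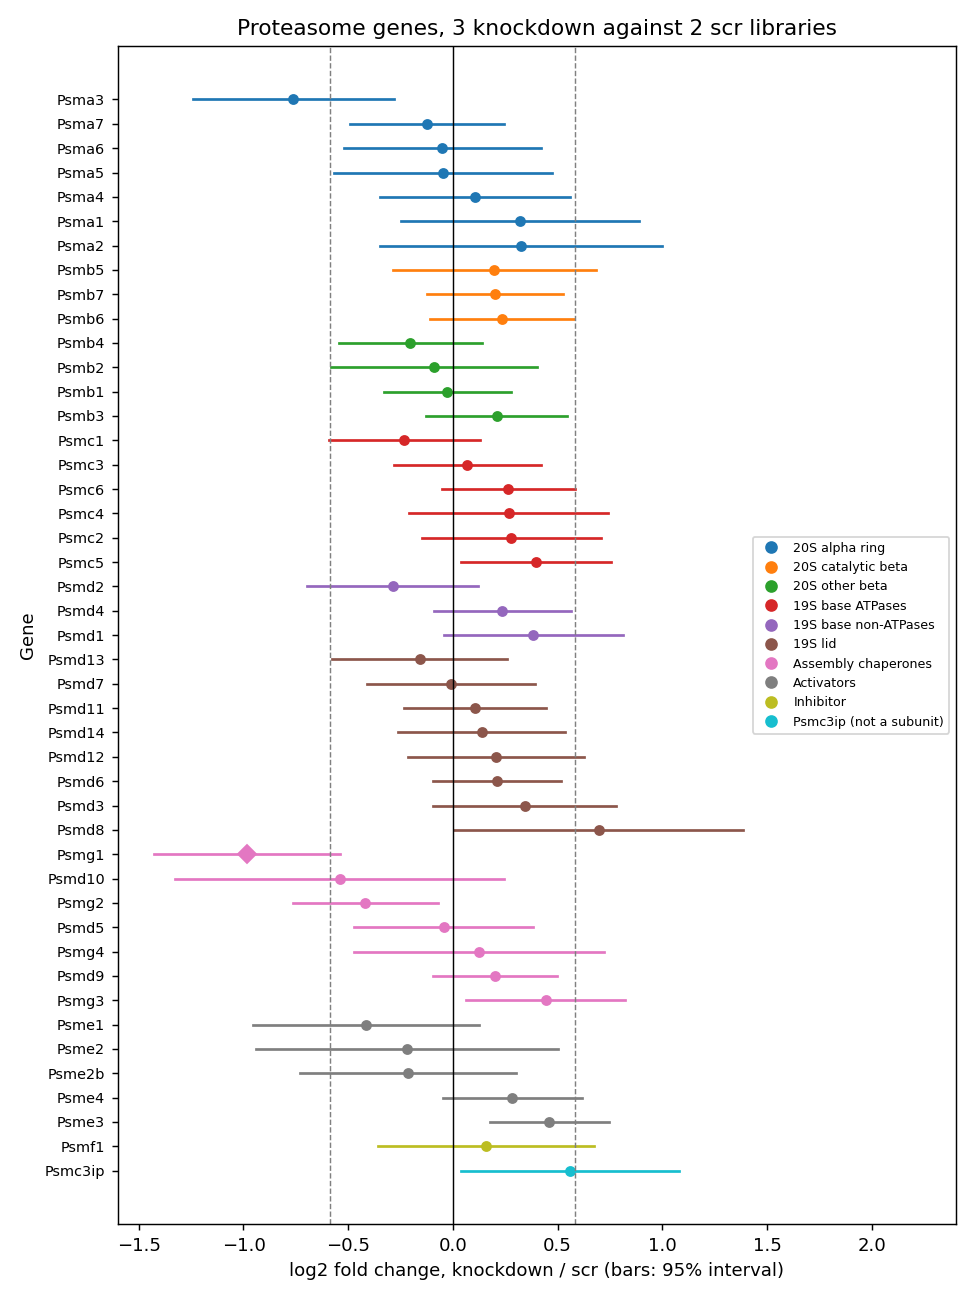
Log2 fold change of the 45 tested proteasome genes in 3 knockdown against 2 scr libraries (x axis) with 95% intervals as bars, 1 gene per row and coloured by role; the solid line marks no change and the dashed lines 1.5-fold. The diamond is Psmg1 at -0.99, the 1 gene called, and the other 44 lie between -0.76 (Psma3) and 0.70 (Psmd8).

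The size of the changes was bounded as well as tested. The 45 log2 fold changes had a median of 0.14, against -0.01 over all tested genes, with 27 above 0 and 18 below 0. For 20 of the 45 genes (44.4%) the 95% interval lay wholly within 1.5-fold of scr in both directions. The share was 19.5% over all tested genes, whose standard errors were larger, with a median of 0.21 against 0.17 for the 45. All 3 knockdown libraries were above both scr libraries for 15 of the 45 genes, where 25.7% of all tested genes were, and below both for 4, where 24.5% were.

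The 2 scr libraries differed from each other. Scr 50-1 was above scr 25-2 for 37 of the 45 genes, by a median of 0.30 on the log2 scale, while over all tested genes that median was 0.01. For 28 genes the scr libraries differed from each other by more than the knockdown fold change, as they did for 47.1% of all tested genes. The 3 knockdown libraries lay closer together. Their median absolute log2 difference over the 45 genes was 0.11 to 0.18 between any pair, against 0.31 between the scr libraries. Over all tested genes it was 0.17 to 0.22 between knockdown pairs and 0.32 between the scr libraries. The median of the members followed the choice of control, at -0.01 without scr 25-2 (22 genes above 0) and 0.24 without scr 50-1 (36 genes above 0). Parental wt cells, which share the scr libraries as controls, were above both scr libraries for 23 of the 45 genes, where 33.2% of all tested genes were, and below both for 2, where 29.3% were. In an edgeR fit over all 6 libraries 0 proteasome genes were called between wt and scr, as were 0% of all tested genes, and 2 reached an unadjusted p under 0.05, as did 899 of 11647 genes.

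**Figure D2:**
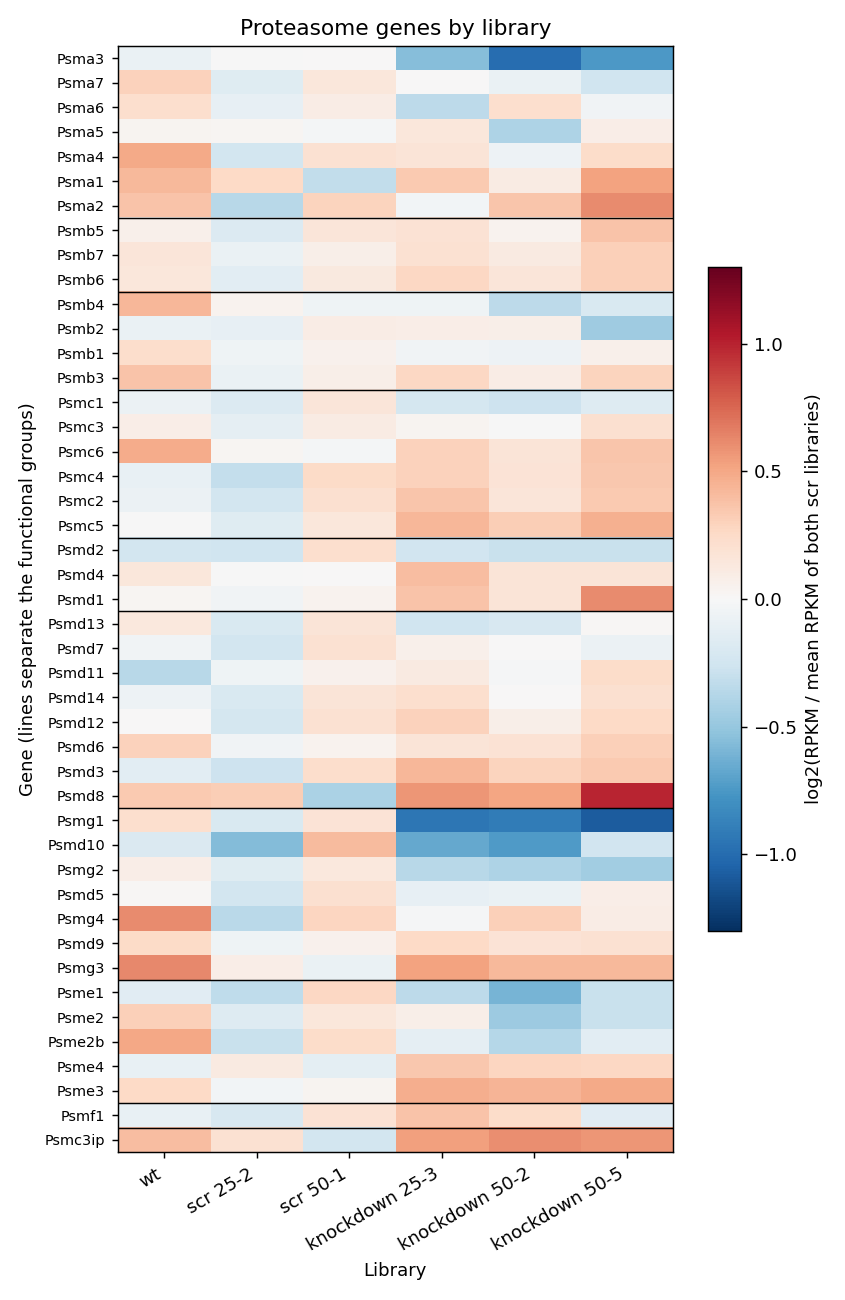
Colour gives the log2 ratio of each proteasome gene's RPKM in a library to the mean of both scr libraries; rows are the 45 tested genes grouped by role, and columns are the 6 libraries. Psmg1 is blue in all 3 knockdown libraries, as is Psma3, Psmd10 is blue in scr 25-2 and in knockdown, the darkest red cell is Psmd8 in knockdown 50-5, and most genes are bluer in scr 25-2 than in scr 50-1.

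The alpha subunits form the outer rings of the core, where the gate for substrates lies. Among the 7 of them 3 log2 fold changes were above 0 and 4 below, with a median of -0.05, and 0 passed the edgeR test (1 at an unadjusted p under 0.05). Psma3 had the lowest value, with an RPKM of 8.76 in wt, 9.21 and 9.34 in scr, and 6.34, 4.67 and 5.53 in knockdown. The knockdown libraries were all below both scr libraries, which agreed closely with each other, and wt lay just under them. The log2 fold change was -0.76 (SE, the standard error, 0.194), and the FDR of 0.0612 in the edgeR test was just outside the threshold. Psma3 passed the same thresholds with DESeq2 (FDR 0.00691) and when wt was added to the controls (FDR 0.0343). The 42 tested genes within 5 Mb of Psma3 had a median log2 fold change of -0.53, with 39 below 0. Of the 50-base stretches of its transcript 22.0% occur in other annotated genes. The part of either in its lower level was not tested. A gene on the opposite strand, 3110056K07Rik, overlaps 4263 bases of Psma3 with a mean RPKM of 2.63, and the strand setting of the read counting is not given in the sources used here. Psma2 had the highest log2 fold change of the alpha subunits, with RPKM values of 75.4 and 118 in scr and 94.1, 124 and 148 in knockdown. Its groups overlapped and its log2 fold change of 0.32 had a 95% interval from -0.35 to 1.00.

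The catalytic beta subunits carry the active sites, Psmb5 for cleavage after hydrophobic, Psmb6 after acidic and Psmb7 after basic residues. Psmb5 had an RPKM of 21.5 in wt, 18.2 and 23.0 in scr, and 23.4, 21.3 and 26.6 in knockdown. Psmb6 had 107 in wt, 87.5 and 105 in scr, and 116, 107 and 119 in knockdown. Psmb7 had 178 in wt, 151 and 169 in scr, and 184, 173 and 197 in knockdown. Knockdown libraries were all above both scr libraries for Psmb6 and Psmb7, by small margins, and overlapped them for Psmb5. The log2 fold changes were 0.20 for Psmb5, 0.23 for Psmb6 and 0.20 for Psmb7, none past the test (FDR 0.531, 0.303 and 0.349, edgeR). The 95% interval of Psmb7 ran from -0.13 to 0.52, so a rise or fall of 1.5-fold lay outside it. Psmb5 shares 57.1% of the 50-base stretches of its transcript with other annotated genes, Psma5 55.4% and the structural subunit Psmb3 55.8%, so reads may have been lost to or gained from near-copies.

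The other beta subunits are structural. Psmb1, Psmb2, Psmb3 and Psmb4 had log2 fold changes between -0.20 (Psmb4) and 0.21 (Psmb3), with a median of -0.06, and all 4 intervals lay within 1.5-fold. Psmb4 had the highest mean RPKM of the core subunits over all libraries, with 292 in wt, 224 and 209 in scr, and 208, 171 and 189 in knockdown. The wt library was well above the others, and the knockdown libraries were below both scr libraries by a margin that was under 1 RPKM unit for knockdown 25-3. Its FDR was 0.363 in the edgeR test. Psmb3 had 52.9 and 59.4 in scr and 67.4, 60.2 and 68.7 in knockdown, with all knockdown libraries above both scr libraries and an FDR of 0.343.

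The ATPases Psmc1 to Psmc6 form the unfolding ring at the base of the regulatory particle. In this group 5 of 6 log2 fold changes were above 0, with a median of 0.27, and 0 passed the edgeR test (1 at an unadjusted p under 0.05). Psmc5 had an RPKM of 105 in wt, 94.2 and 116 in scr, and 143, 132 and 145 in knockdown. All knockdown libraries were above both scr libraries, at a log2 fold change of 0.40 (SE 0.145, edgeR FDR 0.129). Psmc1, the 1 ATPase below 0, had 54.0 and 68.3 in scr and 52.3, 50.6 and 54.5 in knockdown, where the groups overlapped at a log2 fold change of -0.23.

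Psmd1 and Psmd2 are the large scaffold subunits of the base, and Psmd4 is a ubiquitin receptor. Psmd1 had an RPKM of 98.6 and 106 in scr and 132, 115 and 156 in knockdown, with all knockdown libraries above both scr libraries and a log2 fold change of 0.38 (FDR 0.193, edgeR). Psmd2 had 58.7 and 81.5 in scr and 59.1, 57.2 and 57.3 in knockdown, where the knockdown values were nearly alike and the scr values were not. Its log2 fold change was -0.29 (FDR 0.291, edgeR).

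The lid subunits surround the deubiquitinase Psmd14, which cuts ubiquitin chains off proteins entering the particle. Of the 8 lid genes 6 had log2 fold changes above 0, with a median of 0.17, and 5 intervals lay within 1.5-fold. Psmd8 had the highest fold change of all 45 genes, with an RPKM of 102 in wt, 100.4 and 60.4 in scr, and 120, 115 and 160 in knockdown. The scr libraries stood far apart, and wt was next to the higher one. Its log2 fold change of 0.70 (SE 0.279, edgeR FDR 0.156) missed the threshold, and without scr 25-2 it was 1.12 and passed the test (FDR 0.0345), while without scr 50-1 it was 0.37 (FDR 0.324). Psmd13, the lowest of the lid, had a log2 fold change of -0.16 with overlapping groups, which turned to 0.03 without scr 50-1. Psmd14 itself was at 0.14.

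**Figure D3:**
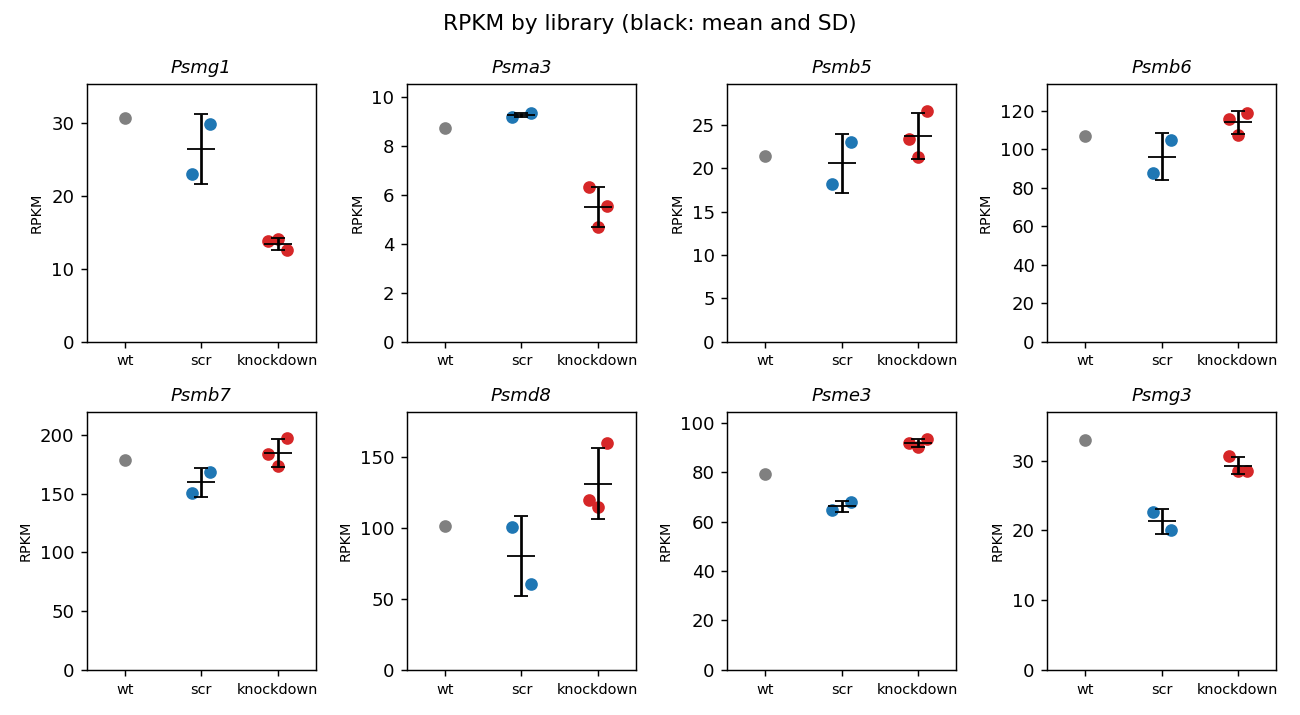
RPKM (y axis, from 0) of 8 proteasome genes in the single wt library (grey), 2 scr libraries (blue) and 3 knockdown libraries (red); black lines give the mean and SD of scr and knockdown. The knockdown points lie below both scr points for Psmg1 and Psma3, and above both for Psmb6, Psmb7, Psmd8, Psme3 and Psmg3. For Psmb5 the lowest knockdown point lies between the scr points and the others lie above both.

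Added over the complex, the 14 core subunits summed to an RPKM of 1692 in wt, 1336 and 1466 in scr, and 1456, 1421 and 1510 in knockdown. The scr mean was 1401 ± 91.9 (SD, n = 2) and the knockdown mean 1462 ± 44.7 (SD, n = 3), and the groups overlapped. The 17 regulatory particle subunits with Psmc or Psmd names summed to 1518 in wt, 1349 and 1590 in scr, and 1722, 1582 and 1799 in knockdown. The groups overlapped again, with means of 1469 ± 170 (SD, n = 2) and 1701 ± 110 (SD, n = 3). The ratio of the core sum to the regulatory sum was 1.12 in wt, 0.990 and 0.922 in scr, and 0.845, 0.899 and 0.839 in knockdown. The knockdown ratios were all below the scr ratios, and the wt ratio was above both. With 10 splits of these 5 libraries an exact permutation test cannot give a p under 0.1, so no p is given for the sums and their ratio. In counts of genes, 13 of 17 regulatory particle genes were above 0 in knockdown and 7 of 14 core genes, with medians of 0.21 and 0.04.

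Assembly chaperones fold the rings together and leave the finished particle. This group held the 1 called gene, Psmg1 (PAC1), which pairs with Psmg2 (PAC2) to guide assembly of the alpha ring. Psmg1 lies on chromosome 16 (mm10, chr16:95979933-95990960, minus strand, 1044 exon bases). It was counted 838 times in wt, 708 and 889 times in scr, and 456, 475 and 433 times in knockdown, for an RPKM of 30.8 in wt, 23.0 and 29.9 in scr, and 13.8, 14.1 and 12.5 in knockdown. The knockdown libraries were tightly grouped below both scr libraries, and wt was above them all. The mean RPKM of scr was 26.5 ± 4.84 (SD, n = 2), and that of knockdown fell to 13.5 ± 0.83 (SD, n = 3). On the log2 scale Psmg1 changed by -0.99 (SE 0.180, 95% interval -1.43 to -0.54), with a Benjamini-Hochberg FDR of 0.0292 in edgeR. None of the 50-base stretches of its transcript occurs in another annotated gene.

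The call of Psmg1 was lost under several alternatives. Its FDR was 0.0570 without scr 50-1, 0.106 without knockdown 25-3, 0.124 without knockdown 50-2 and 0.0951 without knockdown 50-5, with log2 fold changes between -0.79 and -1.01, and it passed without scr 25-2. The number of all genes called was 1230 with all 5 libraries, 2273 without scr 25-2, 1283 without scr 50-1, 259 without knockdown 25-3, 131 without knockdown 50-2 and 346 without knockdown 50-5.

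The upstream sequence of Psmg1, printed to show what lies before the 1 called gene, spans chr16:95990961-95991210 (GRCm38.p6, the same coordinates as mm10, RefSeq, minus strand) and is given 5′ to 3′ up to the base before the start site. It has no capitals because neither of the motifs searched, TGACNNNGC and CCAAT on both strands, occurs in it.
Psmg1: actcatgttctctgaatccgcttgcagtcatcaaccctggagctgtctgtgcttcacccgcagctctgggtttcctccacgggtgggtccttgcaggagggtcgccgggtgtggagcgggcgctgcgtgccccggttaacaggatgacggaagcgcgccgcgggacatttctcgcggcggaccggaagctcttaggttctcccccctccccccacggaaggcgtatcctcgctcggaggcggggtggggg

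Most genes around Psmg1 had log2 fold changes below 0 as well. Within 5 Mb on either side lay 45 tested genes with a median log2 fold change of -0.80. Of these 37 were below 0, 23 were called lower and 1 was called higher. The neighbours' median log2 ratio to the scr mean was -0.83 in knockdown 25-3, -0.74 in 50-2 and -0.80 in 50-5, while in wt it was near 0. Psmg1 lay -0.19 on the log2 scale from its neighbours' median. Over the 366 tested genes of chromosome 16 the median was -0.47 and 82.8% were below 0, and of 11562 genes with at least 5 neighbours 80 (0.692%) had a neighbours' median as low as that of Psmg1. The part of the neighbourhood in the lower level of Psmg1 was not tested.

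**Figure D4:**
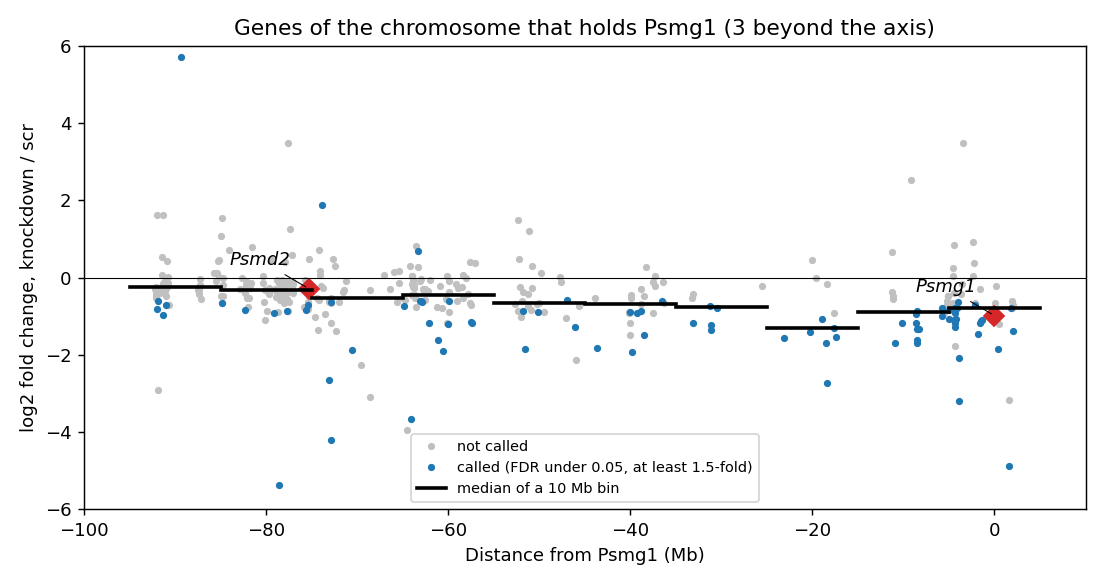
Log2 fold change of knockdown against scr (y axis) for the tested genes of chromosome 16 by their distance from Psmg1 in Mb (x axis); blue points are called genes, grey points are not, black lines are medians of 10 Mb bins, red diamonds are Psmg1 and Psmd2, and 3 genes lie beyond the axis limits of 6. Every bin's median is below 0, from -0.25 at the far end to -1.31 in the bin from 25 to 15 Mb away and -0.80 around Psmg1.

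Chromosomes 16, X, 12, 18 and 8 had the lowest median log2 fold changes of all chromosomes, between -0.47 and -0.30, and the next lowest, chromosome 10, was at -0.08. This grouping was made after the values were seen. On these 5 chromosomes lie 8 tested proteasome genes, and all 8 log2 fold changes were below 0, with a median of -0.35, where 80.2% of all 2039 tested genes there were below 0. Psmg1 and Psmd2 are on chromosome 16, Psma3, Psma6 and Psmc1 on 12, Psmd10 on X, Psmg2 on 18 and Psmd7 on 8. Of the 37 proteasome genes on other chromosomes 10 were below 0, with a median of 0.20, where 44.7% of all genes were below 0. In wt the median log2 ratio to the scr mean was -0.02 for chromosome 12 and nearer to 0 for 16 and 8, while it was -0.12 for 18 and -0.31 for X.

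**Figure D5:**
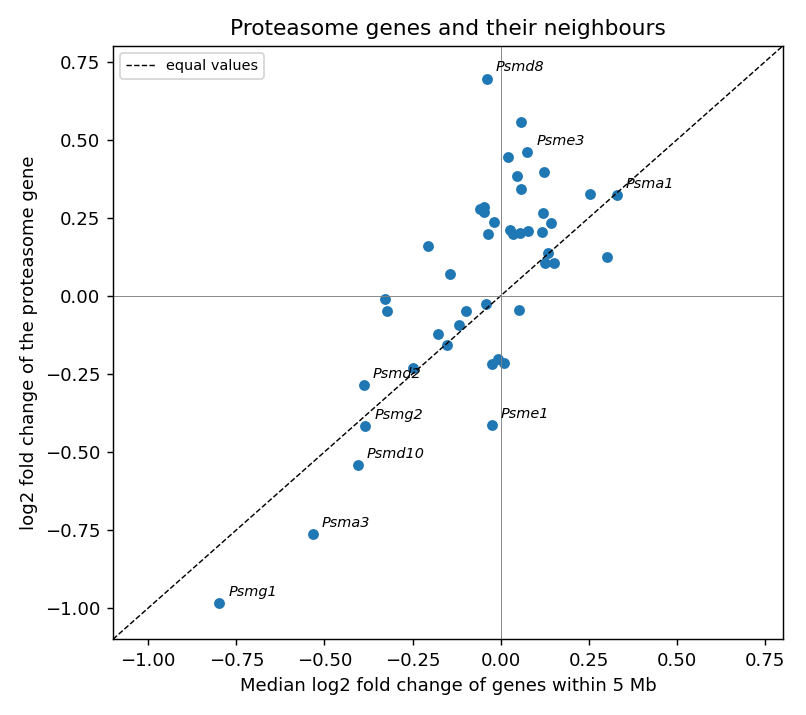
Log2 fold change of each of the 45 proteasome genes (y axis) against the median log2 fold change of the tested genes within 5 Mb of it (x axis); the dashed line marks equal values. Psmg1, Psma3, Psmd10, Psmg2 and Psmd2 lie at the lower left near the line, and Psmd8 is the gene farthest above it. Psma6 and Psmd7, with neighbours' medians of -0.32 and -0.33, lie above the line at -0.05 and -0.01.

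Across the 45 genes the fold change and the neighbours' median had a Spearman correlation of 0.60 and a Pearson correlation of 0.75. Over the 11562 genes they were 0.35 and 0.20. Log2 fold changes ran from -0.99 to 0.70 in the 45 genes and from -9.92 to 12.2 over all tested genes. The correlations were not adjusted for that difference in range. This is a description across genes of the same libraries, the 45 lie on 16 chromosomes, and genes close together share neighbours. The difference of a gene from its neighbours ran from -0.39 (Psme1) to 0.73 (Psmd8), with a median of 0.09.

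Psmg2, the partner of Psmg1, had an RPKM of 37.9 in wt, 32.0 and 39.3 in scr, and 27.8, 26.9 and 26.0 in knockdown. All knockdown libraries were below both scr libraries, with a log2 fold change of -0.42 and an FDR of 0.108 by the edgeR test, and the neighbours' median was -0.38. Psmg3, which with Psmg4 forms the other alpha ring chaperone pair, had 32.9 in wt, 22.6 and 20.03 in scr, and 30.7, 28.5 and 28.6 in knockdown. All knockdown libraries and wt were above both scr libraries, and the log2 fold change was 0.44 (FDR 0.116, edgeR). The chaperones of the base ring differed among themselves, with Psmd10 (gankyrin) at -0.54, Psmd5 at -0.04 and Psmd9 at 0.20. Psmd10 had scr values of 19.997 and 39.3, the widest scr ratio of the 45 genes (1.97), with scr 25-2 among the knockdown values of 18.7, 17.8 and 25.01, and it passed the test without scr 25-2 but not without scr 50-1. Pomp, a chaperone of the beta ring that the naming rule leaves out, was at -0.11 (FDR 0.659).

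Alternative activators open the core without the regulatory particle. Psme3, the nuclear activator PA28 gamma, had the smallest p among the genes above 0, with an RPKM of 79.3 in wt, 64.5 and 67.8 in scr, and 92.0, 90.0 and 93.3 in knockdown. The 3 knockdown libraries and the scr libraries each agreed closely and stood apart, with wt between them. At a log2 fold change of 0.46 (SE 0.115, 95% interval 0.18 to 0.74), its FDR of 0.0587 missed the threshold in the edgeR test. With DESeq2 its FDR and that of Psmg3 passed 0.05, at less than 1.5-fold. Psme1, which with Psme2 forms the interferon-induced activator PA28, was lowest of the group at -0.41 with overlapping groups (FDR 0.255). Psme2 and its near-copy Psme2b were at -0.22 and -0.21 and share 59.3% and 69.3% of their 50-base stretches with other genes, mostly with each other, so their counts are uncertain. Psmf1 (PI31), an inhibitor of the core in vitro, was at 0.16 and turned to -0.01 without scr 25-2. Psmc3ip matches the rule by its name but is a recombination factor and no subunit, and its log2 fold change was 0.56 (FDR 0.140).

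The immunoproteasome subunits replace the catalytic ones in interferon-treated and immune cells. Psmb10 had an RPKM of 20.5 in wt, 14.1 and 25.4 in scr, and 11.8, 10.2 and 11.99 in knockdown. All knockdown libraries were below both scr libraries, and the log2 fold change was -0.81 (FDR 0.113, edgeR), and it was -1.16 with an FDR of 0.0160 without scr 25-2 and -0.33 with an FDR of 0.327 without scr 50-1. Psmb8 was at -0.44 (FDR 0.316) and Psmb9 at -0.47 (FDR 0.384). Psmb9 had an RPKM of 6.33 in wt, 1.64 and 2.26 in scr, and 1.53, 1.27 and 1.46 in knockdown, where wt stood apart from the rest, and with wt added to the controls its log2 fold change was -1.25 (FDR 0.147).

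Regulators of proteasome genes were examined from a list of 9 genes of the NRF1 and NRF2 axis, of which 2 had log2 fold changes above 0 and 7 below, and 1 was called, where 10.6% of all tested genes were. Nfe2l1, which encodes NRF1, had an RPKM of 45.1 in wt, 42.7 and 49.4 in scr, and 45.0, 49.0 and 46.2 in knockdown. The groups overlapped, with a log2 fold change of 0.01 that changed sign with the setting. Nfe2l2 (NRF2) was at -0.04 with scr values of 41.9 and 79.4. Ngly1, the enzyme that removes sugars from NRF1 and so allows its activation, fell from an RPKM of 8.63 and 9.85 in scr to 4.33, 5.59 and 5.28 in knockdown, by 0.88 on the log2 scale (FDR 0.0401, edgeR). All knockdown libraries were below both scr libraries and wt, and the call was lost without scr 50-1 (FDR 0.0792) and without any 1 of the 3 knockdown libraries (FDR 0.103 to 0.130).

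NRF1 acts through the antioxidant response element, TGACNNNGC. In RefSeq promoters (GRCm38.p6, 250 bases before to 50 after the start site) 39 of the 47 genes were matched, and the element occurred on either strand in 6 of them (15.4%), against 14.0% of 27025 promoters and 17.0% of the 8966 of tested genes. In Psmb6 the element, with its first base at -9, also lies before the start site, but its flanking bases run past it. The 4 sites that lie wholly upstream of the start together with their flanking bases are shown to let the element be read in place. These 4 are given 5′ to 3′ in the direction of the gene, with the element or its reverse complement in capitals. They lie at chr14:54618019-54618057 on the minus strand (Psmb5), chr14:45329582-45329620 (Psmc6), chr11:107479278-107479304 (Psmd12) and chr5:123228144-123228182 (Psmd9), these 3 on the plus strand.
Psmb5: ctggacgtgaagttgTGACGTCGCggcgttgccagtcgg
Psmc6: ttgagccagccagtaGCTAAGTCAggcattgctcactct
Psmd12: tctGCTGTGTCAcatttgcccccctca
Psmd9: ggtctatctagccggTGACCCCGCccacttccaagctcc

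In the 6 tested genes with the element the log2 fold changes had a median of 0.22, and in the 32 without it 0.12. The CCAAT box, bound by NF-Y, occurred in 14 of 39 promoters (35.9%) against 41.1% of all and 43.6% of those of tested genes, with medians of 0.21 in 13 tested genes with it and 0.16 in 25 without it. A match of letters is not a measured binding site.

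Proteins that dock on the proteasome or feed it were read from the same fit, in which 10.6% of all tested genes were called in either direction. Among 9 bound enzymes and adaptors 1 was called, Akirin2, a nuclear factor that binds proteasomes and brings them into the nucleus. Akirin2 had an RPKM of 31.7 in wt, 36.2 and 31.1 in scr, and 73.1, 71.7 and 88.9 in knockdown. It rose in all knockdown libraries, by 1.20 on the log2 scale (FDR 0.0157, edgeR), and the FDR was 0.0631 without knockdown 25-3 and 0.0702 without knockdown 50-2. The tested genes within 5 Mb of Akirin2 had a median of 0.48, and the part of that neighbourhood was not tested. Among 12 ubiquitin genes, activating enzymes and shuttle factors, which include Midn, Rad23b was the 1 called higher. Rad23b, a shuttle that carries ubiquitin chains to the proteasome, rose from an RPKM of 86.4 and 91.8 to 140, 130 and 139, by 0.60 on the log2 scale (FDR 0.0370, edgeR). That change is just past 1.5-fold, the call was lost without any 1 of the 5 libraries, with wt added to the controls (0.58, under 1.5-fold) and with the label number as a term (FDR 0.0657), and the genes within 5 Mb had a median of 0.36. Of 11 genes of p97 (Vcp) and its cofactors, which extract proteins for degradation, 0 were called by edgeR and 0 had an unadjusted p under 0.05. The ubiquitin receptor Adrm1 was at 0.04 (FDR 0.913) and Sem1, a small lid subunit, at 0.38 (FDR 0.152), which was 0.08 (FDR 0.855) with wt added to the controls.

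Other large complexes were read from the same fit for comparison, and no difference between complexes was tested. The COP9 signalosome, whose subunits resemble those of the lid, had 10 of 10 log2 fold changes above 0, a median of 0.19 and 0 called, with 4 at an unadjusted p under 0.05, against 10.6% of all tested genes called and 31.5% at that p. The translation factor eIF3 had 6 of 12 above 0, a median of -0.03 and 1 called, Eif3i at -0.59 (FDR 0.0359), just past 1.5-fold. The chaperonin CCT had 5 of 8 above 0, a median of 0.07 and 1 called, Cct8 at -0.86 (FDR 0.0239), which like Psmg1 lies on chromosome 16 among genes with a median of -0.80. Both calls were lost without scr 50-1 and without any 1 of the 3 knockdown libraries.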

How the data were processed

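Ribosome-depleted RNA of 6 Hepa1-6 libraries was sequenced by the authors in single-read mode, aligned to mm10 with Tophat2 and counted per RefSeq gene with HTSeq (0.6.1p1 in the submitters' processing notes, another version in the paper's methods). They deposited raw counts, and separately RPKM values made with TMM-scaled library sizes from edgeR. How strand was treated in counting is not given in the sources used here. Total counts per library are given with the results, and 0 library columns were left unmatched. Knockdown (3 libraries) was compared with scr (2) on the deposited counts after TMM scaling. The quasi-likelihood test of edgeR 4.0.16 (R 4.3.3) was run on every gene whose RPKM passed 1 in any compared library, with Benjamini-Hochberg adjustment over all of them. The study compared 2 knockdown clones with scr, and the labels do not tie its clones to libraries. Wt (1 library) was compared with scr in 1 fit over 3 groups, where it is assumed to vary like the others. The sources used here do not say whether libraries of a group come from separate cultures, so p-values measure the spread between these libraries, which may be technical. Intervals of the fold change are at 95% and use the fit's degrees of freedom. Per-library log2 ratios and differences use log2(RPKM + 0.1).

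Named genes were the called members, Psmb5, Psmb6 and Psmb7, the highest and lowest fold change of each role, the smallest p in each direction, members under the filter, Midn, Psmb8, Psmb9, Psmb10, Adrm1, Sem1, Pomp, Nfe2l1, Nfe2l2 and called genes of the other lists. Psmg2, Psmd10 and other members beyond these were named after their values were seen. The members and lists were chosen with earlier results of these data known. Alternatives were other scalings and filters, DESeq2 1.42.0, limma 3.58.1 on log2(RPKM + 1) and log2(RPKM + 0.1), wt added to the controls, the label number as a term, and leaving out each library. The comparison with genes within 5 Mb was added after seeing the data. Shared 50-base stretches were counted against GENCODE M21 transcripts. The test code was checked on simulated counts.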

Additional observations from a re-analysis of the deposited data

How the results depend on the processing

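Psmg1 was the 1 proteasome gene called lower under the other scalings (size factors of DESeq2 in edgeR, upper quartile, total counts without the ribosomal transcript Rn45s), both limma fits, and without or with another filter on low values. With DESeq2, 2 members were called lower (Psma3 and Psmg1), and at any fold 2 were higher (Psme3, Psmg3) and 2 lower, while 20.1% of all genes were called. With wt added to the controls, where 14.1% of all genes were called, 2 were lower at either rule (Psma3, Psmg1). With the label number 25 or 50 as an added term (6.97% of all genes called) 0 were lower at either rule, where Psmg1 was at -0.997 with an FDR of 0.0530. When 1 library was left out, 0 to 1 members were called higher and 0 to 2 lower, with the same ranges at any fold, and the median of the members ran from -0.0116 to 0.240. The cause of these changes was not tested.

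Among single genes, values that changed sign were all below an absolute log2 change of 0.5 and none passed the test on either side. Nfe2l2 turned to 0.0381 with limma on log2(RPKM + 1) and 0.0398 on log2(RPKM + 0.1), and ran from -0.419 to 0.489 over the fits that left out 1 library. Nfe2l1 turned to -0.0100 with the label number and ran from -0.0771 to 0.118 over those fits. Over the same fits Psmf1 ran from -0.0116 to 0.372, Adrm1 from -0.117 to 0.239, Psmd13 from -0.315 to 0.0343 and Pomp from -0.269 to 0.0910. Of the members that kept their sign, Psme1 ran from -0.671 to -0.0851, Psmd2 from -0.491 to -0.0325, Psmb5 from 0.0509 to 0.375, Psmb6 from 0.122 to 0.371, Psmb7 from 0.134 to 0.282, Psma2 from 0.04997 to 0.681 and Psmc1 from -0.378 to -0.0544, each end without 1 of the scr libraries. Each change of sign there came without scr 25-2 or scr 50-1, and for Nfe2l1 also without knockdown 50-2 (-0.0142). The call of Eif3i was lost with the size factors of DESeq2, total counts without Rn45s, DESeq2, both limma fits and edgeR's own filter, through a fold just under 1.5. Counted over every alternative, including those that left out a library, Eif3i lost its call in 11 of 15. Midn lost its call without knockdown 50-2 (FDR 0.0525). The fit with the label number is a block on the first number shared by scr and knockdown libraries, whose meaning is not given in the sources used here. A count of 0, as for Psma8, allows up to 3 reads in a library, for counting error only.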

Other observations

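The following genes of the degradation lists came close to the threshold and were picked after their values were seen. Uba6, a ubiquitin-activating enzyme, had an RPKM of 10.6 and 8.37 in scr and 15.6, 16.9 and 14.2 in knockdown, a log2 fold change of 0.70 (FDR 0.0505, edgeR). Ubqln2, a shuttle factor, had 27.8 and 29.4 in scr and 40.5, 47.5 and 37.9 in knockdown, at 0.54 (FDR 0.0672, edgeR). Txnl1, a redox protein bound to the regulatory particle, had 140 and 143 in scr and 107, 104 and 107 in knockdown, at -0.43 (FDR 0.0638, edgeR). In each of these genes all knockdown libraries lay on the same side of both scr libraries. The tested genes within 5 Mb had medians of 0.02 for Uba6, -0.66 for Ubqln2 and -0.39 for Txnl1.

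Chromosome 6, which holds 0 of the tested proteasome genes, had the highest median log2 fold change of all chromosomes, 0.35 over 550 genes, with library medians of 0.46, 0.47 and 0.12 in knockdown 25-3, 50-2 and 50-5 and 0.33 in wt.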
